A study of Mus musculus with 3 samples.

Results

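The T cell receptor beta and gamma loci were followed at the level of DNA, as the coverage and the parental balance of every listed SNP in a pair of windows of the mouse genome (GRCm38). The beta window lies on chromosome 6, where its first and last SNPs are at 40897507 and 41557912, and the gamma window on chromosome 13, from 19178080 to 19350354. Every SNP within the windows was taken, with no selection on its values, and the SNPs of receptor segments with counts all lay in coding exons. They hold 203 of the 452304 SNPs listed, 168 in the beta and 35 in the gamma window, in 52 of 30212 genes (41 and 11). Of these genes, 51 had counts. The pseudogene *Trbv10*, with 8 SNPs, had 0 counts in all 3 libraries, and 2 SNPs of *Try5* also had none, so 193 SNPs carried the values below.

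Whole-exome libraries were made from 3 recipient animals, 1 library each. All cells were F1 hybrids of a C57BL/6 (B6, substrain C57BL/6J per the methods) mother and a CAST/EiJ (CAST) father and came from female Ly5.2 donors, whose hematopoietic stem cells (HSCs) had been injected into sublethally irradiated F1 recipients carrying Ly5.1. E6.2 received 50 HSCs of donor animal 6 (polyclonal), and 58000 B220+IgM+ B cells were sorted, from spleen per the labels and from bone marrow per the methods. E6.43 received 1 HSC of donor animal 6 and E15.10 1 HSC of donor animal 15 (monoclonal), and 250000 and 177000 CD4+CD8− thymus T cells were sorted. Donors were under 5 weeks old and recipients 5 to 16 weeks per the methods, with no age given for each animal in the sources used here. Polyclonal DNA is represented by B cells alone, so clonality and cell type cannot be told apart, and with 1 library per group there is no replicate error and no test between groups. Values are therefore given with 95% intervals that cover counting error only. Read pairs that cover several SNPs are counted at each, which makes these intervals too narrow.

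The beta and gamma chains of the T cell receptor are assembled in developing thymocytes by V(D)J recombination, in which the RAG recombinase joins a V segment to a D or J segment at recombination signal sequences (RSSs). An RSS consists of a conserved heptamer and a nonamer that are separated by a spacer of fixed length, and a long-spacer signal is joined to a short-spacer signal. The DNA between segments of the same orientation is usually excised as a circle and lost as cells divide, whereas segments of opposite orientation are joined by inversion, which keeps the DNA in between. In mature T cells of the αβ type, the beta locus is rearranged on at least the allele that encodes the receptor, and the gamma locus, although used for the receptor of γδ T cells, is often rearranged as well. B cells leave both loci largely in germline form and rearrange the immunoglobulin loci instead.

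The signals that flank the segments on which the results turn are given here as read from the GRCm38 genome at the annotated ends of the segments, 5′ to 3′ on the strand of the gene, with the best match to the heptamer and the nonamer in capitals. They mark where the DNA of each segment ends in a join.
Trbv30, 3′ signal, chr6:41281979-41282029, plus strand: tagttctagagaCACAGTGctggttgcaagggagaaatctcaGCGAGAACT
Trbd1, 5′ signal, chr6:41533173-41533212, plus strand: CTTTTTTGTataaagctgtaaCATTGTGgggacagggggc
Trbd1, 3′ signal, chr6:41533201-41533251, plus strand: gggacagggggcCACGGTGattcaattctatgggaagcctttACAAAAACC
Trbj1-2, 5′ signal, chr6:41533973-41534012, plus strand: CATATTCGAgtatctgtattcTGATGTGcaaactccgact
Trbj2-7, 5′ signal, chr6:41543782-41543821, plus strand: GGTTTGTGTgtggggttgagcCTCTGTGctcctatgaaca
Tcrg-V4, 3′ signal, chr13:19185495-19185545, plus strand: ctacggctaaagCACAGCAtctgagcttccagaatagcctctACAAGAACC
Tcrg-V6, 3′ signal, chr13:19190918-19190968, plus strand: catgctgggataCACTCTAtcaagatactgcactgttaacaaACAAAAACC
Trgj1, 5′ signal, chr13:19210315-19210354, plus strand: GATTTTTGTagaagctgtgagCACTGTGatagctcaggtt

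The spacer was 23 bases in the V segments shown and on the 3′ side of *Trbd1*, and 12 bases on the 5′ side of *Trbd1* and in the J segments shown. Of the 7 heptamer and 9 nonamer letters of the consensus (CACAGTG and ACAAAAACC, reverse complemented on the 5′ side), *Trbv30* matched 7 and 5, *Tcrg-V4* 5 and 8, *Tcrg-V6* 4 and 9, *Trgj1* 7 and 8, and *Trbj1-2* 4 and 4. The exact heptamer was found, on either strand, in the 39 bases after 9 of the 29 annotated V genes of the windows (31%) and after 42 of 5380 other genes of chromosomes 6 and 13 (0.781%). For the exact nonamer the counts were 2 of 29 (6.90%) and 11 of 5380 (0.204%). V genes are annotated to end at their signal, so their higher share follows from the annotation and is no result about these segments. A match is a description of the letters and was not tested as a site of recombination.

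Coverage was expressed as allelic counts per 1000000 autosomal counts (CPM), of which the libraries held 18906729 (E6.2), 12671054 (E6.43) and 10624832 (E15.10), and relative coverage as the value of a T cell library over that of E6.2. The median relative coverage of all autosomal genes was 1.00 in E6.43, while E15.10 had 0.94. E15.10 covered AT-rich sequence poorly: its median SNP ratio to E6.2 was 0.415 at SNPs whose surroundings had 36 to 38% GC and 1.34 at 54 to 56% GC, where E6.43 had 0.910 and 1.04. For E15.10, values corrected for GC content or relative to the genes within 1 Mb of the window are therefore given beside many of the uncorrected ones. Those flanking genes were at 0.939 (beta) and 0.965 (gamma) of E6.2 in E6.43, and at 0.609 and 0.470 in E15.10. There the 5′ flank of the beta window was at 0.441 and the 3′ flank at 0.643. With GC correction the flanking genes of E15.10 were still at 0.694 (beta) and 0.615 (gamma). Its GC-corrected values therefore do not have 1 as their local baseline. In bulk DNA, the share of cells that lack a stretch and the number of alleles from which it is missing in each cell cannot be told apart. The labelled cell types were checked at other receptor loci. The delta chain genes of the marker list with SNPs, *Trdd1* and *Trdv4*, which lie within the alpha locus and are removed by alpha rearrangement, had 530 counts in E6.2 and 64 in E6.43, with 47 in E15.10, or 0.180 and 0.158 of the E6.2 level in the T cell libraries. The D segments of the immunoglobulin heavy chain had 61, 218 and 125 counts, 5.33 and 3.65 times the B cell level in the T cell libraries, and *Ighj3* had 102, 197 and 171 counts, 2.88 and 2.98 times. The delta genes were thus low in the libraries labelled as T cells, and the heavy chain D and J segments were low in the library labelled as B cells.

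In the T cell libraries the beta window was covered less than in the B cell library. The J1-C1 cluster had the lowest block values, though in E6.43 its interval overlapped that of the trypsinogen genes. The gamma window as a whole was near the level of its surroundings in E6.43, and 1 of its V segments was far below it in both T cell libraries. The beta window had 1311 CPM in E6.2 and 595 in E6.43, while E15.10 had 330. Relative coverage was thus 0.454 (0.442 to 0.466) in E6.43 against 0.252 (0.243 to 0.261) in E15.10, the latter 0.302 after GC correction. The gamma window had 225, 189 and 119 CPM, which gave 0.843 (0.802 to 0.887) in E6.43, while E15.10 had 0.530 (0.498 to 0.565), or 0.949 after GC correction. Of the 40 genes of the beta window with at least 20 counts in E6.2, 29 were below 1/1.5 of the E6.2 level in E6.43, against 3.06% of the 22169 autosomal genes with that many counts. With GC correction 28 were, against 2.79%. In the gamma window it was 2 of 11 genes either way. In E15.10 the fold was passed by 39 of 40 genes in the beta window and 9 of 11 in the gamma window, where 33.5% of autosomal genes passed it. After GC correction 37 of 40 and 1 of 11 remained below, against 21.6% of autosomal genes.

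**Figure D1:**
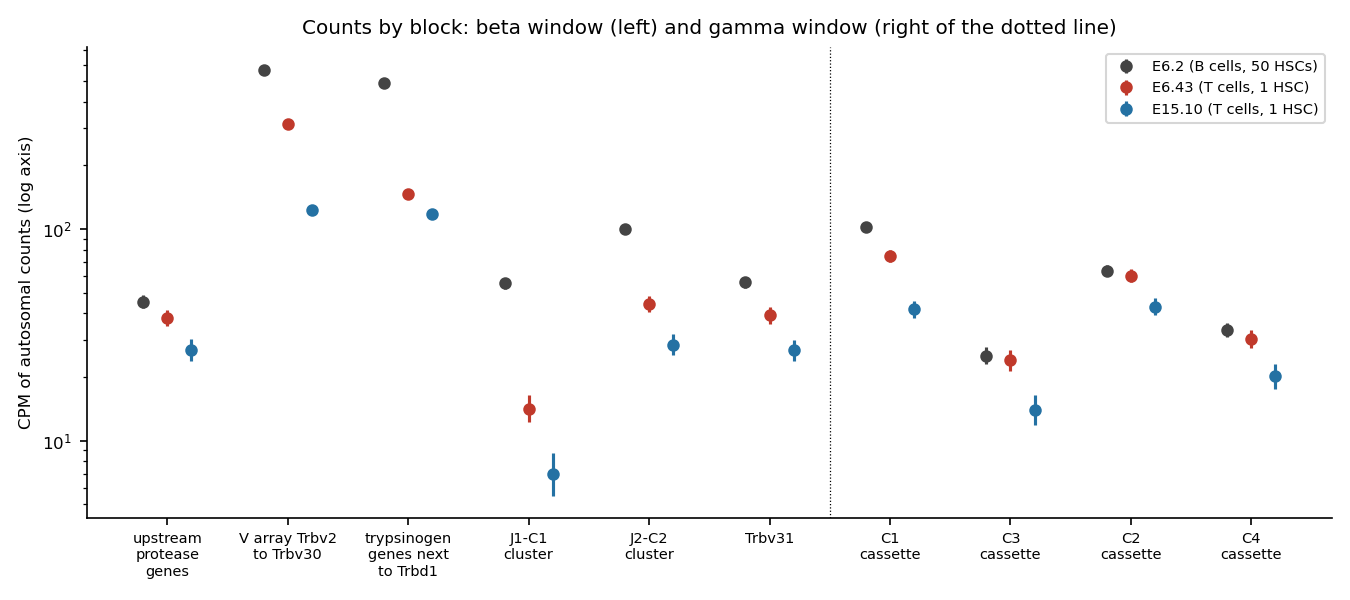
Coverage in CPM (log axis) in each of the 6 blocks of the beta window and the 4 cassettes of the gamma window, in order along the chromosome, with 1 point per library and bars for the 95% Poisson interval. In the trypsinogen block E6.43 (146) and E15.10 (118) lie close together and far below E6.2 (490), while in the gamma C2 and C3 cassettes E6.43 lies at the level of E6.2.

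Near the 5′ edge of the beta window lie 5 protease and protease-like genes that are no receptor segments. They lie between *Trbv1*, for which no SNP was listed, and the main V array. They had 45.5 CPM in E6.2 and 38.1 in E6.43, with 26.8 in E15.10. In E6.43 they were covered at 0.838 (0.748 to 0.938) of the E6.2 level and none was below 1/1.5, from 0.685 for *2210010C04Rik*, the gene next to the array, to 1.07 for *Gm4744*. E15.10 gave 0.590, or 1.12 after GC correction, but its genes did not move together. *Gm2663* had 323, 189 and 206 counts and a ratio of 1.13 in E15.10, whereas *Prss58*, *1700074P13Rik*, *Gm4744* and *2210010C04Rik* lay between 0.238 and 0.356, or between 0.470 and 0.800 with GC correction. The E15.10 value of this block therefore rests on *Gm2663*, which held 206 of its 285 counts.

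The main V array, from *Trbv2* to *Trbv30*, had 564 CPM in E6.2 and 313 in E6.43, while E15.10 had 124. V segments encode most of the antigen-binding part of the chain, and each T cell keeps its chosen segment on a rearranged allele together with those further 5′. Relative coverage was 0.555 (0.535 to 0.576) in E6.43 against 0.219 (0.207 to 0.232) in E15.10, or 0.301 after GC correction and 0.360 relative to the flanking genes. In E6.43 the ratio declined along the array toward the D segments. *Trbv2*, *Trbv4* and *Trbv5* together were at 0.803 (0.732 to 0.880), *Trbv12-1* to *Trbv14* at 0.584 (0.553 to 0.616), *Trbv16* to *Trbv26* at 0.494 (0.463 to 0.527), and *Trbv30*, the last before the trypsinogen genes, at 0.253 (0.209 to 0.305). Across the 17 V genes with counts, Spearman's rho between position and ratio was −0.79, and −0.72 with GC correction. These genes share the library and its rearranged alleles, so rho is a description. E15.10 did not show such a decline: the same sets were at 0.256, 0.214, 0.224 and 0.165, and rho was −0.29, or −0.07 after GC correction. With GC correction the values were 0.448, 0.270, 0.320 and 0.225, with the highest again in the 5′ set.

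Single segments varied around this decline in E6.43. *Trbv2*, at the 5′ end of the array, had 381 counts in E6.2 and 190 in E6.43, while E15.10 had 32, or 20.2, 15.0 and 3.01 CPM. Its ratio was 0.744 in E6.43 against 0.149 in E15.10, or 0.277 after GC correction. The highest ratio of the array in E6.43 was that of *Trbv5*, 0.849 (0.752 to 0.958), with 747, 425 and 124 counts. Among V segments of the beta locus with at least 50 counts in E6.2, the lowest in E6.43 after *Trbv30* were *Trbv21* (0.342), *Trbv19* (0.356) and *Trbv20* (0.462), all in the 3′ part. *Trbv30*, whose signal is shown above, had 778, 132 and 72 counts, 41.1, 10.4 and 6.78 CPM. Only 0.162% of autosomal genes had a lower ratio in E6.43 than *Trbv30*. In E15.10, where all 17 segments were below 1/1.5, the range was 0.125 for *Trbv19* to 0.312 for *Trbv4*.

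**Figure D2:**
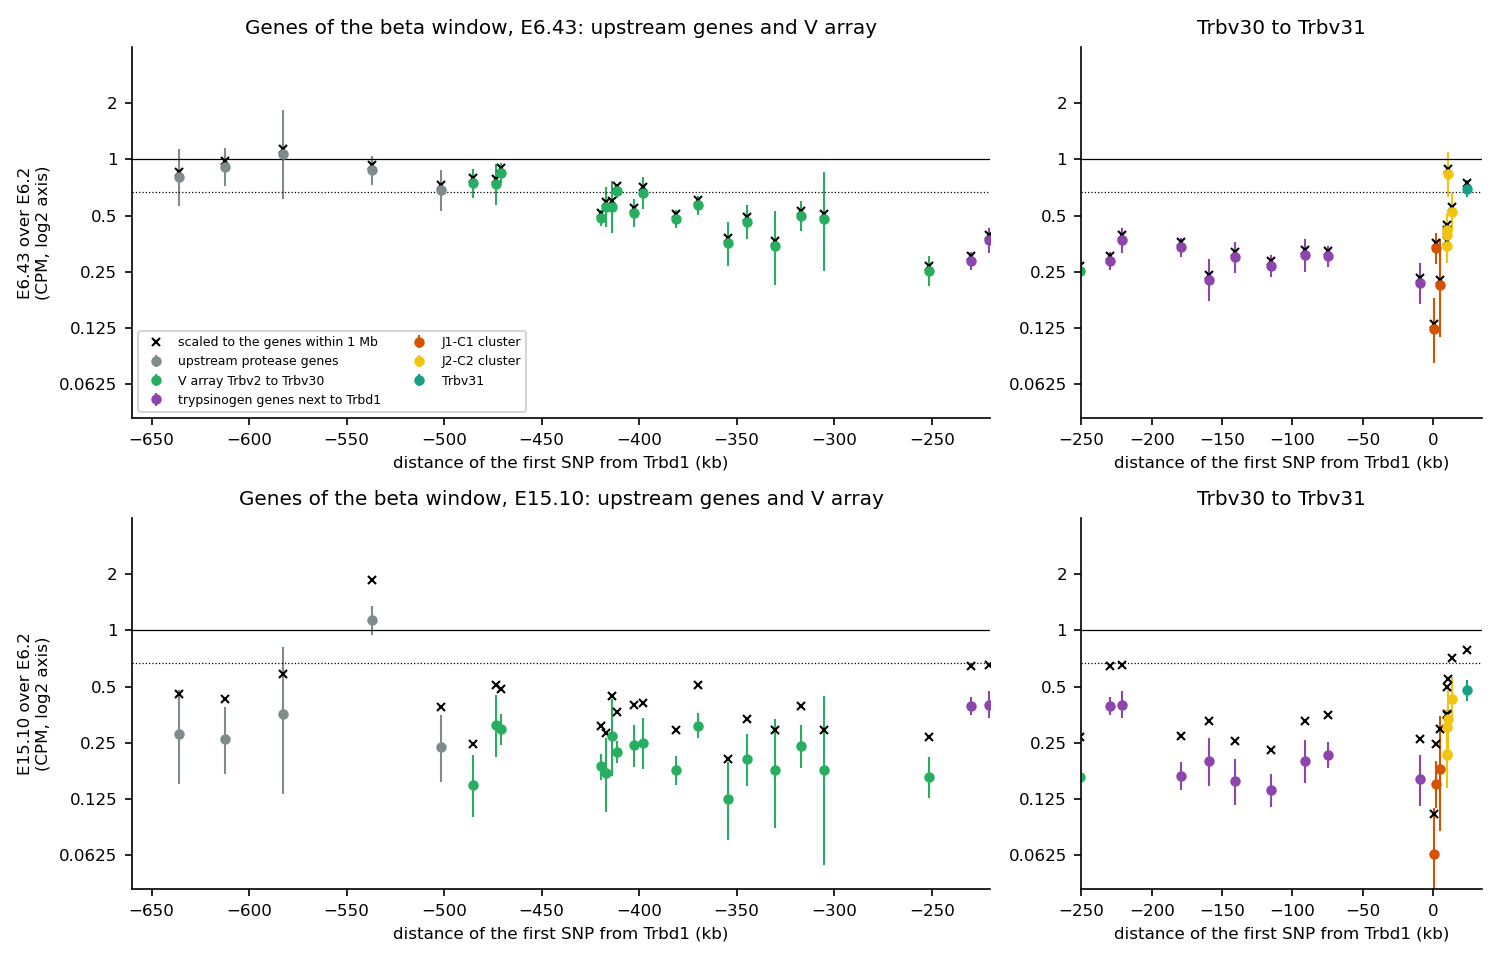
Relative coverage over E6.2 (log2 axis) of the 40 genes of the beta window with at least 20 counts in E6.2, against the distance of each gene's first SNP from *Trbd1* in kb, for E6.43 (top) and E15.10 (bottom). Circles with 95% intervals are coloured by block, crosses are the same ratios relative to the genes within 1 Mb, and the lines mark 1 and 1/1.5. In E6.43 the ratio goes from 0.744 at *Trbv2* to 0.253 at *Trbv30*, stays between 0.217 and 0.369 over the trypsinogen genes and reaches 0.699 at *Trbv31*.

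Between *Trbv30* and *Trbd1* lie 9 genes of the trypsinogen family, whose coding members encode digestive proteases of the pancreas and have no role in the receptor. *Gm5409* among them is annotated as a pseudogene. A deletional join of any V segment of the array to a D segment removes all 9 genes, whereas a D-to-J join leaves them in place. They had 490 CPM in E6.2 and 146 in E6.43, while E15.10 had 118. All 9 lay in a narrow range in E6.43, from 0.217 for *Prss2* to 0.369 for *Try5*, with 0.298 (0.284 to 0.313) for the block. E15.10 was at 0.240 (0.226 to 0.255), at 0.288 after GC correction and at 0.394 relative to the flanking genes. The E15.10 genes spread more widely, from 0.140 for *Gm5409* to 0.400 for *Try5*. *Prss2*, the last before *Trbd1*, had 502, 73 and 45 counts. For this block as a whole, E15.10 over E6.43 was 0.805 (0.749 to 0.866), or 0.971 with GC correction. For the V array it was 0.394 (0.370 to 0.420), or 0.535. The block value rests in part on *Try4* and *Try5*, at 1.38 and 1.08, with 429 and 179 of its 1250 counts in E15.10. The other genes of the block lay between 0.489 for *Try10* and 0.878 for *Prss3*. Single SNPs of *Try4* ran from 0.165 to 1.11 of the E6.2 level in E15.10. Of the 38 genes of the beta window with at least 20 counts in E6.43, 29 were below 1/1.5 in E15.10 over E6.43, against 31.6% of 21803 autosomal genes, and 20 after GC correction, against 19.2%. In the gamma window 7 of 11 were, and 0 after GC correction. For E15.10 over E6.43 the genes within 1 Mb were themselves at 0.649 (beta) and 0.487 (gamma), or 0.743 and 0.625 with GC correction. These counts and the ratios of E15.10 over E6.43 given so far therefore start from a local level below 1 and are not scaled to it. Relative to the genes within 1 Mb, the trypsinogen block was at 0.318 of E6.2 in E6.43 and at 0.394 in E15.10. For the V array these values were 0.591 and 0.360. E15.10 was thus no longer the lower library for the trypsinogen block. By gene of that block, E15.10 over E6.43 scaled in this way ran from 0.754 for *Try10* to 2.12 for *Try4*.

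Downstream of *Trbd1* follow the D-J-C clusters. J segments supply the end of the variable domain and C genes the constant domain that anchors the chain. The J1-C1 cluster had the lowest ratios to E6.2 of the blocks of the window in both T cell libraries, from 55.5 CPM in E6.2, 14.2 in E6.43 and only 6.96 in E15.10. Its ratio was 0.256 (0.217 to 0.300) in E6.43, while E15.10 had 0.126 (0.0978 to 0.159), or 0.139 after GC correction and 0.206 relative to the flanks. In E6.43 this interval overlapped that of the trypsinogen block (0.284 to 0.313). The cluster has only 4 SNPs, and its value depends in part on the single SNP of *Trbj1-2*. *Trbj1-2*, with 338, 28 and 12 counts at 1 SNP located 6 bases inside the segment, was at 0.124 (0.0809 to 0.182) and 0.0632 (0.0323 to 0.112), and 0.0586% and 0.244% of autosomal genes had a lower ratio in E6.43 and E15.10. *Trbj1-5* had 613, 138 and 52 counts and ratios of 0.336 and 0.151, the former above the 0.298 of the trypsinogen block. The constant gene of this cluster, *Trbc1*, had 98, 14 and 10 counts and ratios of 0.213 (0.112 to 0.375) and 0.182 (0.0844 to 0.348).

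The J2-C2 cluster kept more of its coverage in both T cell libraries. It had 100.1 CPM in E6.2 and 44.3 in E6.43, while E15.10 had 28.4. The ratios were 0.442 (0.402 to 0.486) and 0.284 (0.251 to 0.321). This cluster is GC-rich, so GC correction lowered the E15.10 value, to 0.220. *Trbj2-3*, *Trbj2-4* and *Trbj2-5* were at 0.342, 0.417 and 0.394 in E6.43 and at 0.303, 0.219 and 0.215 in E15.10. *Trbj2-7*, the last J segment, was the highest J in both T cell libraries, at 0.837 (0.632 to 1.10) and 0.337 (0.216 to 0.507), from 148, 83 and 28 counts. With GC correction E15.10 had 0.251 for *Trbj2-7* and 0.284 for *Trbj2-3*, so this order did not hold there. Reads over a J segment that has been joined carry another V or D sequence next to it, and whether such reads were aligned or lost was not tested. *Trbc2* lies 3′ of all J segments and is not removed by a deletional join within the array. It had 293, 103 and 71 counts and ratios of 0.525 (0.415 to 0.659) and 0.431 (0.328 to 0.561). *Trbc1* and *Trbc2* are near-identical genes whose reads can align to both, so the values of either are uncertain.

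*Trbv31* is the only V segment 3′ of the C genes and has the opposite orientation, so it joins by inversion. It had 1059, 496 and 284 counts, 56.0, 39.1 and 26.7 CPM. At ratios of 0.699 (0.627 to 0.778) and 0.477 (0.417 to 0.545), it was the best covered block of receptor segments of the beta window in both T cell libraries. Relative to the flanking genes the values were 0.744 and 0.784. GC correction moved E15.10 to 0.377, since the segment has 54.1% GC.

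The gamma locus consists of 4 cassettes, each with a V segment, a J segment and a C gene. Only the C1 cassette has several V segments, and the C2 cassette is inverted. In E6.43 the C3, C2 and C4 cassettes were at 0.949 (0.819 to 1.10), 0.947 (0.864 to 1.04) and 0.905 (0.795 to 1.03) of the E6.2 level, so their intervals included 1. The C1 cassette was at 0.732 (0.676 to 0.791). That value turned on *Tcrg-V6*, a segment whose chain is known from γδ T cells that arise in the fetal thymus. *Tcrg-V6* had 357 counts in E6.2 and 20 in E6.43, with 14 in E15.10, or 18.9, 1.58 and 1.32 CPM. Its ratios were 0.0836 (0.0504 to 0.131) and 0.0698 (0.0378 to 0.119), the lowest of all genes of both windows in E6.43, and 0.0406% of autosomal genes had a lower ratio there. All 4 SNPs of the segment were low, with 4 to 6 counts each in E6.43 where E6.2 had 83 to 94. E15.10 had 2 to 4 counts at them. These SNPs lie between positions 19190372 and 19190439 and share reads. Their agreement is therefore not independent, and the counts of the T cell libraries stand for few molecules.

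The neighbours of *Tcrg-V6* did not share its low coverage. *Tcrg-V7* and *Tcrg-V4*, which lie 5′ of it, had 314, 191 and 90 counts and 180, 109 and 51 counts, with E6.43 ratios of 0.908 (0.754 to 1.09) and 0.904 (0.706 to 1.15). *Tcrg-C1*, 3′ of the joining segment *Trgj1*, had 1080, 627 and 289 counts and a ratio of 0.866 (0.784 to 0.957). Relative to the flanking genes, E15.10 had 1.09 for *Tcrg-V7*, 1.07 for *Tcrg-V4*, 0.148 for *Tcrg-V6* and 1.01 for *Tcrg-C1*. No SNP was listed for *Tcrg-V5*, the V segment between *Tcrg-V6* and *Trgj1*. Without *Tcrg-V6* the gamma window was at 0.913 (0.867 to 0.961) in E6.43, while E15.10 had 0.573 (0.537 to 0.611), which became 0.969 and 1.05 with GC correction and, for E15.10, 1.22 relative to the flanks.

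Elsewhere in the gamma window the E6.43 ratios lay closer to 1. *Tcrg-C3* was the other gene below 1/1.5 in E6.43, at 0.611 (0.469 to 0.792) from 205, 84 and 63 counts, while *Tcrg-V3* of the same cassette had 273, 220 and 86 counts and a ratio of 1.20 (1.00 to 1.44). In E15.10 both were near the flanking genes, at 1.16 and 1.19 relative to them. *Tcrg-C2* (0.965), *Trgv2* (0.905), *Tcrg-V1* (0.970), *Trgj4* (0.789) and *Tcrg-C4* (0.879) had E6.43 intervals that included 1. Relative to the flanking genes, *Trgv2* at 1.95 and *Tcrg-V1* at 1.62 were the highest of the gamma genes in E15.10, and with GC correction they had 1.25 and 1.53. The gamma C genes as a class had 117, 103 and 61.1 CPM in the 3 libraries and the V segments 97.4, 78.2 and 54.4.

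**Figure D3:**
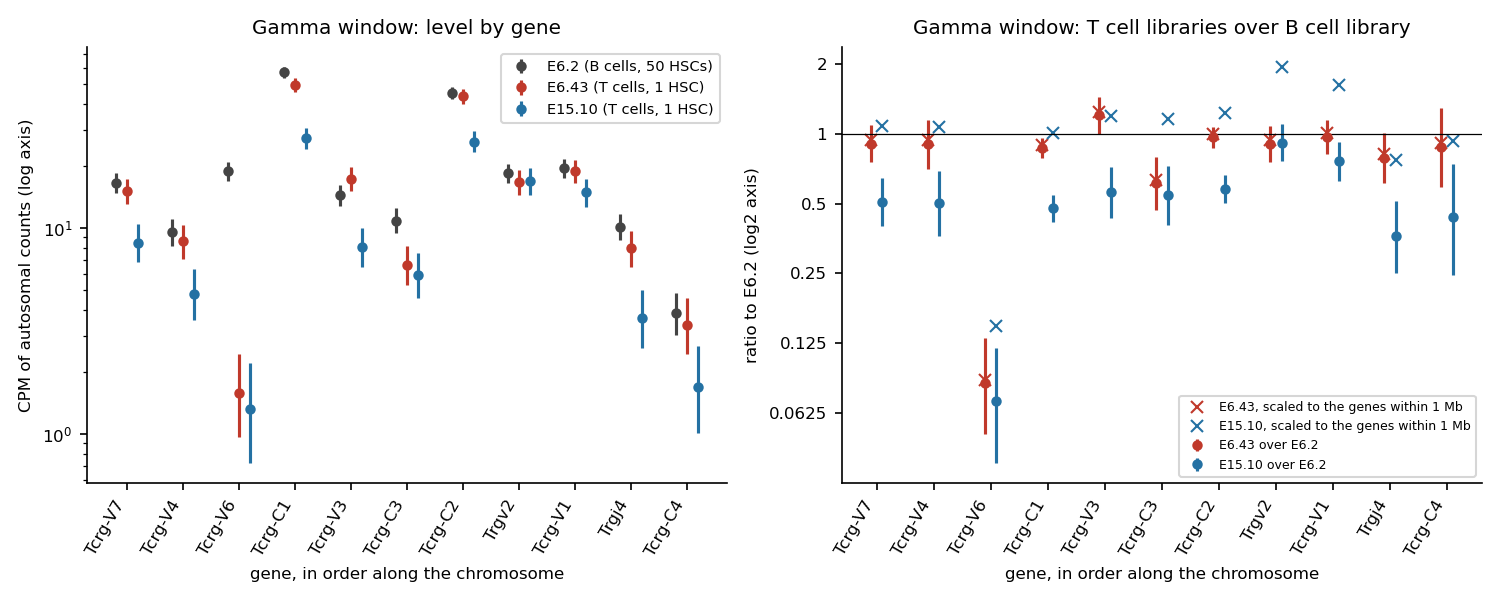
The 11 genes of the gamma window in order along the chromosome. Left, coverage in CPM (log axis) in each library with 95% Poisson intervals; right, ratios of each T cell library to E6.2 (log2 axis, circles with 95% intervals) and the same ratios relative to the genes within 1 Mb (crosses). *Tcrg-V6* stands at 0.0836 and 0.0698, and the next lowest ratio in E6.43 is 0.611 for *Tcrg-C3*.

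The parental balance was read as the allelic imbalance AI, the maternal share of the counts. Its median over autosomal genes was 0.538 both in E6.2 and in E6.43, with 0.537 in E15.10, slightly above parity. In the beta window AI was 0.614 (0.608 to 0.620) in E6.2, against 0.629 (0.618 to 0.639) in E6.43, while E15.10 had 0.645 (0.629 to 0.660), and in the gamma window 0.611, 0.612 and 0.618. The maternal excess was thus present in the B cell library as well. Of the genes with at least 50 counts in both libraries, 14 of 35 in the beta window and 4 of 9 in the gamma window differed by at least 0.1 in AI between E6.43 and E6.2, against 12.5% of 20488 autosomal genes. Between E15.10 and E6.2 it was 13 of 22 and 3 of 8, against 18.1% of 19208, and between E15.10 and E6.43 8 of 22 and 1 of 8, against 19.9% of 19038. In the beta window 11 of the 14 shifts in E6.43 and 8 of the 13 in E15.10 were toward the maternal allele. Over autosomal genes the direction of shifts of at least 0.1 is not given here. Without that threshold, 10351 of 20488 autosomal genes had a higher AI in E6.43 than in E6.2, and 9539 of 19208 in E15.10. Since the T cell libraries have few counts left here and SNPs of a gene share reads, the share of such shifts due to counting error was not tested.

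The trypsinogen genes carried the most even shift. Their joint AI was 0.663 (0.653 to 0.672) in E6.2, against 0.773 (0.753 to 0.791) in E6.43, with 0.748 (0.723 to 0.771) in E15.10. The joint value of E15.10 leans on *Try4* and *Try5*, with AI of 0.751 and 0.799 there. They held 429 and 179 of 1250 counts in E15.10, against 1936 and 796 of 9263 in E6.2. All 9 had a higher AI in E6.43 than in E6.2, with a median difference of 0.10, and 7 of 9 in E15.10, with a median of 0.08. Counted by parent, maternal DNA was at 0.348 and paternal DNA at 0.201 of the E6.2 level in E6.43, and at 0.271 and 0.179 in E15.10. The family has near-identical copies and its AI in E6.2 already ran from 0.572 for *Try4* to 0.817 for *Gm5771*, so reads may have been shared between copies or alleles. *Gm10334* went from 0.795 in E6.2 to 0.958 in E6.43, with 114 maternal of 119 counts, and was at 0.769 in E15.10. *Prss2* went from 0.578 to 0.808 and 0.689.

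In the V array the parents differed from segment to segment. AI of the whole array was 0.593 in E6.2. It was 0.563 in E6.43, while E15.10 had 0.623. A higher AI than in E6.2 was found for 9 of 17 segments in E6.43 against 11 of 17 in E15.10. Among autosomal genes it was found for 10351 of 20488 and 9539 of 19208. *Trbv4* was at 0.537 (0.466 to 0.607) in E6.2, against 0.763 (0.668 to 0.838) in E6.43, with 0.818 (0.656 to 0.914) in E15.10, so that in E6.43 its maternal copy was at 1.05 and its paternal copy at 0.377 of the E6.2 level. *Trbv12-1* went the other way in E6.43, from 0.694 to 0.502, and was at 0.624 in E15.10. *Trbv17* was at 0.606, 0.637 and 0.821.

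*Trbv30* had the largest AI difference between E15.10 and E6.2 among genes of the windows with at least 50 counts in both. Its AI was 0.622 (0.588 to 0.656) in E6.2, against 0.523 (0.438 to 0.606) in E6.43, while E15.10 had 0.931 (0.848 to 0.970), where 67 of 72 counts were maternal. The paternal copy was thus at 0.0303 of the E6.2 level and the maternal copy at 0.246. The counts come from 5 SNPs within the same exon that share reads, at most 22 at a SNP, and at each of them at most 2 were paternal in E15.10. In E6.43 both copies were low, the maternal at 0.213 and the paternal at 0.320.

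Among J segments and other genes, *Trbj1-5* was at 0.657 (0.618 to 0.693) in E6.2, against 0.739 (0.660 to 0.805) in E6.43, with 0.385 (0.265 to 0.520) in E15.10, and *Trbj2-3* at 0.578, 0.628 and 0.378 (0.285 to 0.481). The J segments together had an AI of 0.485 (0.428 to 0.542) in E15.10 and 0.635 (0.596 to 0.671) in E6.43, against 0.597 (0.578 to 0.616) in E6.2. The segments did not move together in E15.10. *Trbj2-4* also fell, from 0.561 to 0.494, but *Trbj1-2* (12 counts), *Trbj2-5* and *Trbj2-7* did not. They were at 0.917, 0.625 and 0.643, against 0.609, 0.547 and 0.642 in E6.2. Outside the receptor segments, *1700074P13Rik*, one of the upstream genes, had 0.482 (0.413 to 0.552) in E6.2, against 0.727 (0.642 to 0.799) in E6.43, and E15.10 with 29 counts stayed at 0.483. The upstream block as a whole had 0.544 in E6.2 and 0.669 in E6.43, with 0.446 in E15.10, whereas the genes within 1 Mb of the beta window had 0.566, 0.563 and 0.564. The genes within 1 Mb of the gamma window were less even, with AI of 0.526, 0.567 and 0.471 in the 3 libraries. In the gamma window itself, *Tcrg-C3* went from 0.527 to 0.405 and 0.397 and *Tcrg-V1* from 0.496 to 0.604 and 0.646. For *Tcrg-V6* the counts left in the T cell libraries were balanced within wide intervals, with 10 maternal of 20 in E6.43 against 8 of 14 in E15.10. They come from SNPs that share reads, so they are few molecules, and in E6.43 single SNPs had 2 maternal of 6 or 3 of 4.

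**Figure D4:**
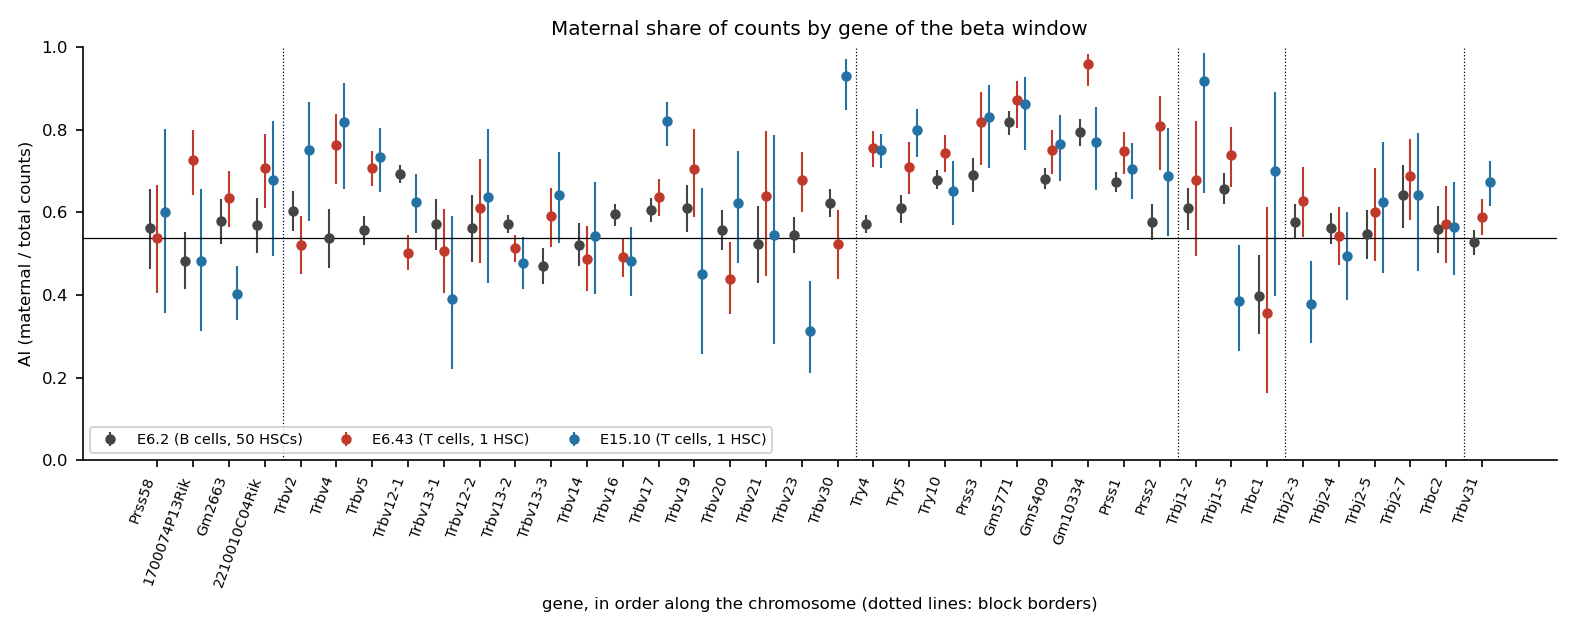
AI (maternal over total counts) with 95% Wilson intervals for the 38 genes of the beta window with at least 10 counts in all 3 libraries, in order along the chromosome. Dotted lines separate the blocks and the solid line is the mean of the libraries' autosomal medians. The 9 trypsinogen genes lie above the line in all libraries, and *Trbv30* reaches 0.931 in E15.10.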

How the data were processed

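Genomic DNA of sorted cells was captured with the Agilent SureSelect Mouse All ExonV6 kit. The submitters' processing notes name cutadapt 1.14, Trim Galore, STAR 2.5.4a, SAMtools, GATK and the builds GRCm38 and mm10. Settings of the ASEReadCounter* pipeline (uniquely aligned reads, B6 reference and imputed CAST genome, exons collapsed per gene, regions shared by genes excluded) are stated for RNA-seq and not for the exomes. Unique alignment loses reads of near-identical genes, and a read across a V(D)J junction matches the germline only in part. The deposited counts per SNP and allele are raw and were summed per gene by the authors; a table of the series, also deposited by the authors, holds counts, the fraction AI with its limits, a p-value and a further call (another kind of value) for genes with at least 90 counts. Its AI served as an alternative, and the deposited p-value and call, which hold the authors' own comparison, were not used. Columns of no sample that were used numbered 0.

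Positions were within the chromosome lengths of GRCm38 for all 19 autosomes, and 0 SNPs were duplicates. Genes were named through GENCODE M21, and *Trbv4* and *Trgj4* by position. Total counts were 19471576 (E6.2), 13036005 (E6.43) and 10863972 (E15.10), and 3 counts, the floor for a gene at 0, equal 0.159, 0.237 and 0.282 CPM. Ratios have exact conditional binomial intervals and AI has Wilson intervals, both at 95%. Ratios were computed for genes with at least 20 counts in the denominator. GC correction divided by the median ratio of autosomal SNPs in bins of the GC content of 301 bases. No statistical test was made between libraries. The ratio and its GC correction were tested on simulated data, in which the coverage bias depended on GC content only. Alternatives were other scalings, SNPs at least 300 bp apart, SNP medians, each parent alone and other minimums and folds. Named were C, J and non-receptor genes with at least 20 counts in E6.2, the first and last V segment and the 5 lowest and 5 highest in E6.43 of those with at least 50, and the 5 largest AI differences per T cell library. Extremes of a block and genes at block edges were named after their values were seen. The windows, lists and rules were chosen with earlier results of these data known. Scripts used Python 3.11.15, pandas 2.3.3, numpy 2.4.6, scipy 1.17.1 and matplotlib 3.10.9.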

Additional observations from a re-analysis of the deposited data

Results flagged for a closer look

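The AI of *Trbv23* moved in opposite directions in the T cell libraries. It was 0.545 (0.500 to 0.590) in E6.2 with 473 counts, 0.677 (0.601 to 0.745) in E6.43 with 158 and 0.312 (0.212 to 0.434) in E15.10 with 64. E6.43 minus E6.2 was 0.13, while E15.10 minus E6.2 was −0.23. The difference between the libraries was not tested, since each is a single library. At the 3 SNPs nearest the recombining end of the segment, 104, 19 and 3 bases from it, E15.10 had 0 maternal counts of 7, 7 and 6, whereas E6.43 had 20 maternal of 27, 16 of 18 and 17 of 19, and E6.2 had 46 of 76, 32 of 61 and 28 of 54. Neighbouring SNPs share reads, so these are few molecules. At the first SNP of the segment, 436 bases from that end, E15.10 had 10 maternal of 18 counts. Both copies were low in E15.10, the maternal at 0.138 and the paternal at 0.364 of the E6.2 level.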

How the results depend on the processing

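The low coverage of the beta segments and of the other genes of the beta window, each pooled, held in both T cell libraries under every alternative run. Of the other genes, the 5 upstream protease genes were at 0.838 in E6.43, with none under 1/1.5, and at 1.12 by GC in E15.10. The gamma values of E15.10 depended on scaling and are limited by that library's poor coverage of AT-rich sequence. Beta segments over E6.2 were at 0.530 in E6.43 (0.564 relative to genes within 1 Mb, 0.484 at SNPs at least 300 bp apart, 0.547 from paternal counts) and at 0.239 in E15.10 (0.254 scaled to the median gene, 0.393 to genes within 1 Mb, 0.281 by GC, 0.212 at spaced SNPs, 0.225 as the SNP median, 0.227 paternal). The other genes were at 0.344 in E6.43 (0.366 to genes within 1 Mb, 0.377 spaced, 0.301 SNP median, 0.396 maternal, 0.247 paternal) and 0.270 in E15.10 (0.286 by the median gene and also maternal, 0.443 to genes within 1 Mb, 0.334 by GC, 0.195 SNP median, 0.239 paternal). Gamma segments were at 0.843 in E6.43 (0.893 by GC, 0.917 SNP median) and 0.530 in E15.10 (0.949 by GC, 0.565 spaced, and above 1 at 1.13 relative to genes within 1 Mb). Also above 1 in E15.10 relative to genes within 1 Mb were gamma C (1.11), gamma V (1.19), the C3 (1.18), C2 (1.44) and C4 (1.29) cassettes, the gamma window without *Tcrg-V6* (1.22), *Tcrg-V7* (1.09), *Tcrg-V4* (1.07), *Tcrg-C1* (1.01), *Tcrg-V3* (1.19), *Tcrg-C2* (1.23), *Trgv2* (1.95), *Tcrg-V1* (1.62) and *Tcrg-C3* (1.16), and by GC gamma C (1.01), the upstream beta genes (1.12), the C3 (1.12), C2 (1.15) and C4 (1.27) cassettes, the gamma window without *Tcrg-V6* (1.05), *Tcrg-V3* (1.08), *Tcrg-C2* (1.10), *Trgv2* (1.25), *Tcrg-V1* (1.53) and *Tcrg-C3* (1.18). *Gm2663*, already above 1 in E15.10 (1.13), went to 1.86 and 1.94 under these settings. The cause was not tested. Counts of low genes in the gamma window went from 2 to 1 in E6.43 at a ratio under 1/2, and from 9 in E15.10 to 4 at that ratio and to 1 by GC or relative to genes within 1 Mb; those of the beta window stayed within 1.5 times. Genes with shifted AI numbered 18 of 44 (E6.43 and E6.2), 16 of 30 (E15.10 and E6.2) and 9 of 30 (E15.10 and E6.43). At a difference of at least 0.15 they numbered 7, 10 and 7 of the same genes. When at least 90 counts in both were asked for, fewer genes were tested, and 15 of 35, 9 of 18 and 5 of 18 were shifted. The share of autosomal genes under these alternatives was not computed. The AI of *Gm5409* in E15.10 was 0.764 over its 106 counts and 0.381 as the median of SNPs with at least 20 counts, which only 1 SNP had. The scaling of blocks and of the beta and gamma counts to genes within 1 Mb, GC correction of blocks and leaving out *Tcrg-V6* were chosen after seeing the data. No paired analysis was possible because each group holds 1 library.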

Other observations

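The alleles of the 5′ part of the V array were unequal in both T cell libraries. For *Trbv2*, *Trbv4* and *Trbv5* together, maternal DNA was at 0.941 and paternal DNA at 0.621 of the E6.2 level in E6.43, and at 0.338 and 0.147 in E15.10, while *Trbv12-1* to *Trbv14* had 0.505 maternal and 0.702 paternal in E6.43 and 0.196 and 0.240 in E15.10. Within the first set *Trbv2* went against the others in E6.43, with 0.642 maternal and 0.899 paternal. These values carry counting error only.

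The constant gene *Trbc2* is 3′ of every J segment, yet its coverage was 0.525 of the E6.2 level in E6.43, below that of *Trbv31* (0.699) further 3′ and of the flanking genes (0.939). Both of its SNPs were low, at 0.495 and 0.600 in E6.43 and at 0.413 and 0.477 in E15.10. Maternal and paternal DNA of *Trbc2* were alike in E6.43 (0.537 and 0.509) and in E15.10 (0.434 and 0.428). Sharing of reads with the near-identical *Trbc1* was not tested.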
